A study of Arabidopsis thaliana with 6 samples.

Results

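The genes described here are the part of the Arabidopsis thaliana chloroplast genome that makes the machinery of gene expression. They were chosen by symbol, as probe sets assigned to 1 gene of the plastid chromosome whose symbol begins with rps, rpl or rpo, or is matK or clpP. The genes rpl32 and rps15 were left out. This gave 19 genes with 1 probe set each, of 13513 single-gene probe sets and 22746 probe sets without controls. There were 7 genes of the small ribosome subunit, 6 of the large subunit, 4 of the RNA polymerase, and matK and clpP. The genes rps7, rps12, rpl2 and rpl23 had only probe sets assigned to several gene entries and were not analysed here. Of the 25 gene symbols that fit the rule, 2 more had no named probe set. Names and gene order come from assembly TAIR10.1.

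Poly-A RNA was measured on 6 Affymetrix ATH1 arrays. Phloem exudate (3 arrays) is the fluid that runs out of cut sieve tubes, collected with EDTA, a calcium chelator. LMPC phloem (3 arrays) is phloem tissue freed by laser microdissection and pressure catapulting. All plants were Arabidopsis grown with 8 h of light a day until they flowered, and the labels name no treatment, genotype or age. Exudate RNA was amplified with a 2-cycle linear kit and LMPC RNA with a SMART kit that includes PCR, so kit and sample type cannot be told apart in any difference between the groups. The labels do not say whether the arrays of a group came from separate plants, so a p-value here reflects only how far these samples spread, and that spread may be technical.

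Chloroplasts keep a small genome of bacterial descent and translate its messages on bacterial-type ribosomes, whose proteins are encoded partly in the plastid and partly in the nucleus. The plastid genes rpoA, rpoB, rpoC1 and rpoC2 encode the core of a bacterial-type RNA polymerase, which needs nuclear sigma factors, while a phage-type polymerase from the nucleus transcribes mainly housekeeping genes, among them the rpoB operon and clpP. MatK is a maturase for group II introns, and clpP encodes a proteolytic subunit of the Clp protease of the stroma. Companion cells and phloem parenchyma contain plastids with this genome, and mature sieve elements, which lack a nucleus, keep modified plastids. Plastid messages generally lack the long poly-A tails of nuclear messages, and which of their molecules the oligo-dT beads held was not measured.

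All values are MAS5 signals, which are linear intensity values with 1 per probe set. The 40th percentile of an array, used as the limit for testing a probe set, lay between 5.90 and 6.60 on exudate arrays and between 9.05 and 10.6 on LMPC arrays. The 75th percentile, used here to call a signal bright, lay between 21.9 and 30.0 on exudate arrays and between 28.7 and 34.7 on LMPC arrays. Without 2% of probe sets at each end, the mean signal was between 17.4 and 27.3 on exudate arrays and between 22.3 and 28.0 on LMPC arrays. Each difference is the mean log2(signal + 16) of exudate less that of LMPC phloem, with the standard error (SE) and Benjamini-Hochberg adjusted p of limma fitted to all 15356 probe sets tested, and a gene was called at an adjusted p under 0.05. This scale understates the change of dim genes. Levels of different probe sets were not compared. The scaling of the arrays moved the balance of all calls: 33.8% of called probe sets had more signal in exudate as deposited, with 1303 probe sets higher and 2552 lower. That share was 51.1% under quantile normalization (1986 and 1898 probe sets), 59.5% under median centring (2144 and 1458) and 88.4% (4036 and 532) under scaling by the spiked-in hybridization controls, called spike-in scaling here. The median difference of all probe sets tested was -0.27 as deposited, 0.02 after median centring and 0.41 after spike-in scaling.

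The plastid gene expression genes were lower in exudate than in LMPC phloem almost throughout. Of 18 tested, 15 were called lower and 0 higher, where 16.6% of all probe sets tested were called lower and 8.49% higher. At an unadjusted limma p under 0.05 all 18 would have been lower, and 0 higher. The shares of all probe sets above do not apply at that looser threshold. Its own share was not computed, so nothing is read from this count. The median difference was -1.65, against -0.27 for all probe sets tested. All 18 passed the limit on all 3 LMPC arrays and would have been tested whatever their exudate signals, while 7 passed it on all 3 exudate arrays. These counts therefore describe the genes and are no evidence of their own. Of the 19 genes, 18 had all 3 exudate arrays below all 3 LMPC arrays, against 27.7% of probe sets tested, and 1 (rps14) had them above, against 12.1%. Less plastid material, less plastid RNA in that material and the different amplification kits cannot be told apart in these bulk samples. How well the oligo-dT beads held plastid messages was not measured either.

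After median centring 14 of 18 genes were called lower (background 9.49%), with a median difference of -1.36. After spike-in scaling 8 were called lower (background 3.46%) and 0 higher, with a median of -0.95. Those 8 genes, rps3, rps4, rps18, rps19, rpl33, rpoA, matK and clpP, were also called lower under each of the other 13 alternatives fitted. Without LMPC array 1, 11 of 17 tested were called lower (background 10.6%).

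The share that the 19 probe sets took of an array's summed signal does not change when an array is rescaled. It was 0.0507%, 0.0402% and 0.0527% on exudate arrays 1, 2 and 3, against 0.720%, 0.344% and 0.631% on LMPC arrays 1, 2 and 3. With rps4 left out, it was 0.0503%, 0.0380% and 0.0492% on the exudate arrays, against 0.461%, 0.175% and 0.329% on the LMPC arrays. With rps4, rpoA and clpP left out, it was 0.0296%, 0.0166% and 0.0243% on the exudate arrays, against 0.230%, 0.0730% and 0.118% on the LMPC arrays. In all 3 sums every exudate array lay below every LMPC array.

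**Figure D1:**
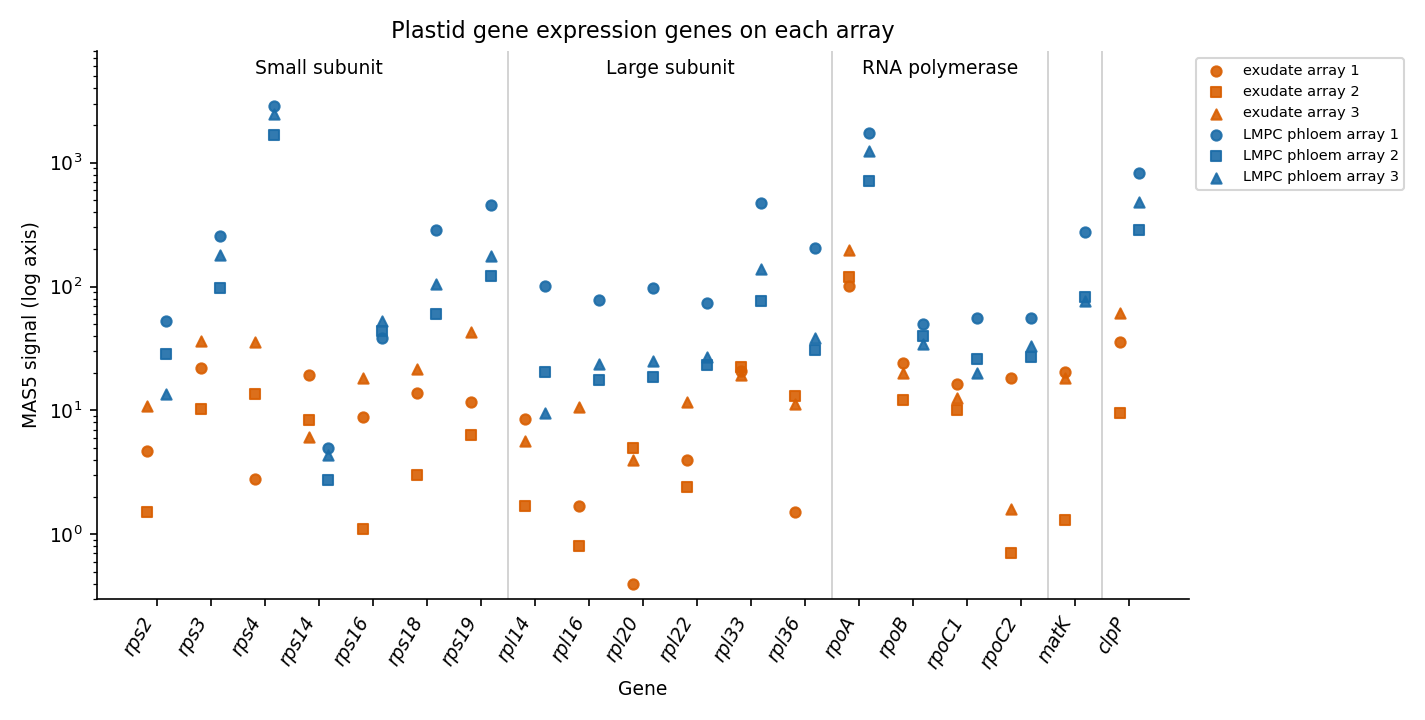
MAS5 signal (log axis) of each of the 19 plastid gene expression genes, with exudate arrays in orange and LMPC phloem arrays in blue and a symbol for each array. Exudate points lie below LMPC points for 18 genes, rps14 is the exception, and heights are to be compared within a gene only.

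Among the small subunit genes, 6 of 6 tested were called lower in exudate, with a median difference of -2.31 and a range from -6.22 to -1.07. The protein of rps4 (ArthCp024) is, in bacteria, one of the first to bind the 16S ribosomal RNA and starts assembly of the subunit. Its signal was 2.80, 13.5 and 35.8 on exudate arrays 1, 2 and 3, against 2886, 1657 and 2448 on LMPC arrays 1, 2 and 3. It was bright on every LMPC array and on 1 exudate array, and the groups were far apart. The difference was -6.22 (SE 0.37, limma adjusted p = 1.34e-09), -7.49 with a pseudocount of 1 and -4.86 with a pseudocount of 64.

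The gene rps19 (ArthCp063), for a protein of the head of the subunit, had signals of 11.7, 6.30 and 42.9 in exudate, against 455, 123 and 178 in LMPC phloem. Its difference was -2.81 (SE 0.43, limma adjusted p = 8.43e-05). The protein of rps18 (ArthCp044) lies, in bacteria, on the platform of the subunit. Its gene had signals of 13.8, 3.00 and 21.6 in exudate, against 287, 59.7 and 105 in LMPC phloem, a difference of -2.34 (SE 0.42, limma adjusted p = 0.000466). The protein of rps3 (ArthCp061) lines, in bacteria, the channel where messages enter the ribosome. Its gene had 22.0, 10.3 and 36.2 in exudate, against 257, 96.7 and 178 in LMPC phloem, a difference of -2.28 (SE 0.36, limma adjusted p = 0.000142). All 3 genes were bright on every LMPC array, and LMPC array 1 was the highest each time.

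The signals of rps16 (ArthCp004), whose product takes part in subunit assembly in bacteria, were 8.90, 1.10 and 18.1 in exudate, against 38.7, 44.1 and 52.7 in LMPC phloem. Its LMPC values were close to each other and, alone among the 19 genes, not highest on LMPC array 1. The difference was -1.32 (SE 0.33, limma adjusted p = 0.00611), and after spike-in scaling, the single alternative without a call, it was -0.72. For rps2 (ArthCp011), a protein that joins late in bacterial assembly, signals were 4.70, 1.5 and 10.9 in exudate, against 52.7, 28.3 and 13.7 in LMPC phloem. Exudate array 3 came close to LMPC array 3. Its difference of -1.07 (SE 0.35, limma adjusted p = 0.0293) was called under 4 of the 13 alternatives that tested it. The call was lost, among others, without LMPC array 1 (-0.76, limma adjusted p = 0.161).

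The gene rps14 (ArthCp020), for another protein of the subunit's head, was the exception. Its signals were 19.3, 8.40 and 6.10 in exudate, against 5.01, 2.72 and 4.35 in LMPC phloem. All its LMPC values lay under the 40th percentile of their arrays, so it was not tested, and in the fit without that limit its difference of 0.42 (SE 0.22, limma adjusted p = 0.270) was not called.

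Of the 6 large subunit genes, 5 were called lower in exudate, with a median difference of -1.42 and a range from -2.37 to -1.17. The gene rpl33 (ArthCp043), for a small protein near the tRNA exit site, had signals of 20.9, 22.4 and 19.4 in exudate, against 469, 76.6 and 138 in LMPC phloem. Its exudate values hardly varied, whereas its LMPC values were spread 6.12-fold from lowest to highest. The difference was -2.37 (SE 0.44, limma adjusted p = 0.000609). The gene rpl36 (ArthCp057), for the smallest protein of the subunit, had 1.5, 13.1 and 11.2 in exudate, against 206, 31.0 and 38.6 in LMPC phloem. Its difference was -1.79 (SE 0.45, limma adjusted p = 0.00721).

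The protein of rpl20 (ArthCp045) is needed early in assembly of the bacterial large subunit. Its gene had signals of 0.4, 5 and 4 in exudate, against 97.3, 18.5 and 25.2 in LMPC phloem, and it was the only one of the 19 genes that exceeded the 40th percentile on no exudate array. The difference was -1.52 (SE 0.39, limma adjusted p = 0.0075). The product of rpl16 (ArthCp060) contacts tRNA near the catalytic centre. Its gene had 1.70, 0.8 and 10.7 in exudate, against 77.1, 17.7 and 23.9 in LMPC phloem, a difference of -1.33 (SE 0.37, limma adjusted p = 0.0142). The protein of rpl22 (ArthCp062) lines the tunnel through which new chains leave. Its gene had 4, 2.40 and 11.7 in exudate, against 73.9, 23.1 and 27.2 in LMPC phloem, a difference of -1.30 (SE 0.35, limma adjusted p = 0.0112). In all 3 genes LMPC array 1 was at least 2.94 times the mean of the other two.

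The gene rpl14 (ArthCp059), for a protein at the contact with the small subunit, had signals of 8.50, 1.70 and 5.70 in exudate, against 100.02, 20.5 and 9.44 in LMPC phloem. The groups did not overlap, but LMPC array 3 was close to exudate array 1, and LMPC values were spread 10.6-fold. Its difference of -1.17 (SE 0.43, limma adjusted p = 0.0510) was not called, and it was called without exudate array 3 (0.0466), without LMPC array 2 (0.0396) or 3 (0.0104) and with a replicate block (0.0275). Without LMPC array 1, 2 of 5 large subunit genes tested were called lower (rpl33 and rpl36). After spike-in scaling (background 3.46%), with a pseudocount of 64 (background 12.6%) and without the limit on dim probe sets (background 9.9%) 1 of 6 was (rpl33), too few to read against these backgrounds. With the 60th percentile as limit, 3 of 3 large subunit genes tested were called lower (background 21.3%).

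Among the 4 polymerase genes, 2 were called lower in exudate, with a median difference of -1.02. The gene rpoA (ArthCp055) encodes the alpha subunit, on which the core enzyme assembles. Its signal was 102, 119 and 197 in exudate, against 1742, 713 and 1238 in LMPC phloem, and it was the only gene of the 19 that was bright on every exudate array. The difference was -2.96 (SE 0.36, limma adjusted p = 6.89e-06). The gene rpoC2 (ArthCp012), for the beta'' subunit, had signals of 18.1, 0.700 and 1.60 in exudate, against 55.5, 26.8 and 32.9 in LMPC phloem. Exudate array 1 stood well above the other two. The difference was -1.30 (SE 0.35, limma adjusted p = 0.0102), and it was not called after spike-in scaling (-0.73).

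The genes for the beta and beta' subunits, which form the catalytic centre, differed less. The gene rpoB (ArthCp014) had signals of 24, 12.1 and 20.2 in exudate, against 50.2, 39.98 and 34.3 in LMPC phloem, a difference of -0.73 (SE 0.31, limma adjusted p = 0.0890). The gene rpoC1 (ArthCp013) had 16.4, 10.0 and 12.5 in exudate, against 56.1, 25.9 and 20.1 in LMPC phloem, a difference of -0.73 (SE 0.33, limma adjusted p = 0.112). Both genes had exudate values below all LMPC values, yet neither was called under any of the 14 alternatives, and after spike-in scaling the sign turned, to 0.11 for rpoB and 0.031 for rpoC1.

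Whether rpoA changed more than its partner subunits was asked with ratios within each array, which no scaling of an array can alter. The log2 ratio of rpoA to rpoB signal was 2.08, 3.29 and 3.29 on exudate arrays, against 5.12, 4.16 and 5.17 on LMPC arrays. That of rpoA to rpoC1 was 2.63, 3.57 and 3.98 on exudate arrays, against 4.96, 4.78 and 5.94 on LMPC arrays. Both ratios were lower in exudate without overlap, by 1.93 and 1.83 in the mean (differences of -1.93 and -1.83). The ratio of rpoA to rpoC2 was 2.49, 7.41 and 6.95 on exudate arrays, against 4.97, 4.73 and 5.23 on LMPC arrays. The rpoC2 signal lay under the 40th percentile on exudate arrays 2 and 3, so these ratios have no firm value there and nothing is read from their order or test. For rpoB and rpoC1, exact two-sided permutation tests gave p = 0.1 each, 0.15 each when adjusted over the 3 ratios computed, where 0.1 is the smallest p that 3 against 3 arrays allow. These ratios were chosen after their values were seen.

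The maturase gene matK (ArthCp003) lies inside the intron of a transfer RNA gene for lysine. Its signals were 20.3, 1.30 and 18.1 in exudate, against 277, 82.2 and 76.5 in LMPC phloem, and it was bright on all LMPC arrays and on no exudate array. The difference was -2.32 (SE 0.42, limma adjusted p = 0.000459). The protease gene clpP (ArthCp048) had signals of 35.8, 9.5 and 60.7 in exudate, against 827, 285 and 479 in LMPC phloem. It was bright on 2 of the 3 exudate arrays and still differed by -3.43 (SE 0.41, limma adjusted p = 6.41e-06). Both genes were called lower under all 14 alternatives.

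Set side by side, 6 of 6 small subunit, 5 of 6 large subunit and 2 of 4 polymerase genes tested were called lower, with median differences of -2.31, -1.42 and -1.02. The ranges overlapped, since rpoA differed by more than any large subunit gene and rps2 by less than any of them. Neither ranking held with a pseudocount of 1, where rpl20 was at -3.41 and rpoA at -3.10, and rps2 at -2.36 and rpl14 at -2.35. After median centring the counts were 5 of 6, 5 of 6 and 2 of 4, with medians of -2.02, -1.13 and -0.72. After spike-in scaling they were 4 of 6, 1 of 6 and 1 of 4, with medians of -1.43, -0.87 and -0.35. The order of the class medians was the same under these 3 scalings, but their spacing depended on the setting. With a pseudocount of 1 they were -3.22, -3.03 and -2.16, with small and large subunit close together. Without LMPC array 1 they were -1.89, -0.92 and -0.86, with large subunit and polymerase close together. The difference between classes was not tested.

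**Figure D2:**
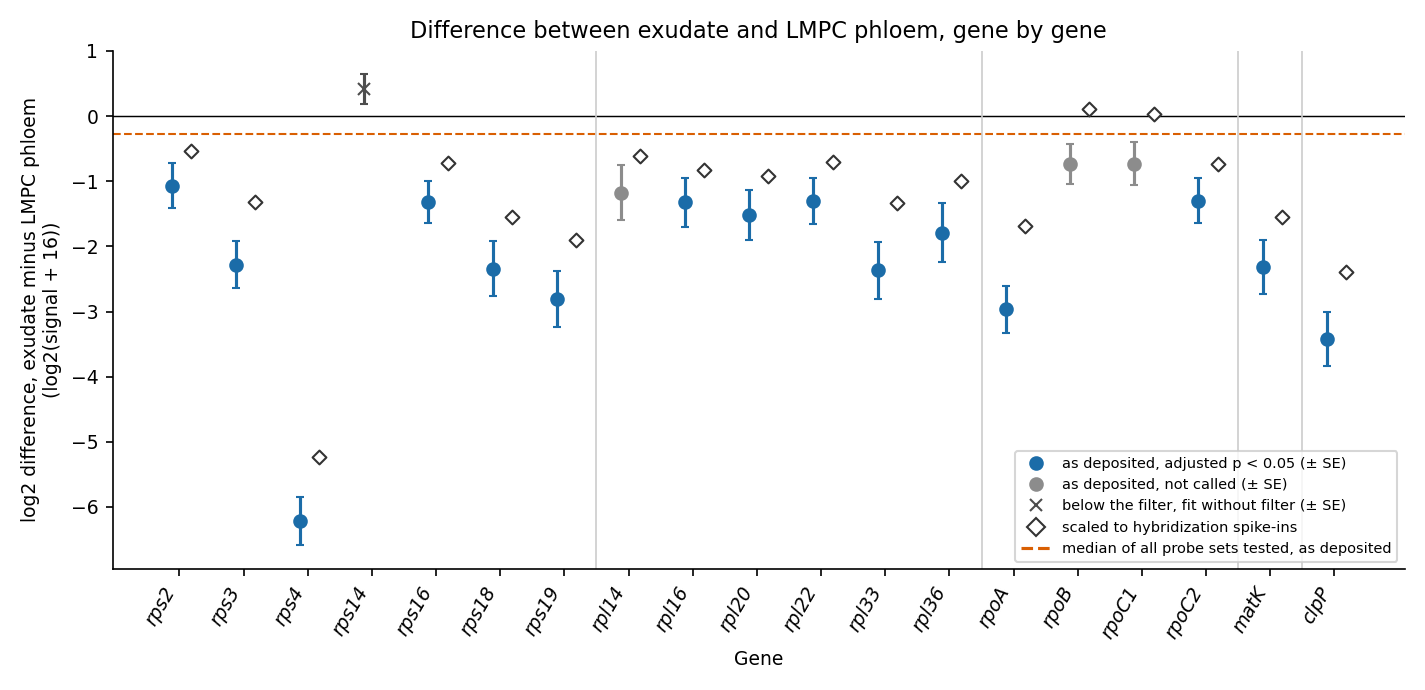
Difference (exudate minus LMPC phloem, log2(signal + 16)) of each gene, with filled circles and SE bars for the values as deposited and open diamonds for values after spike-in scaling. The dashed line is the median of all probe sets tested (-0.27). The difference of rps4 is -6.22, and after spike-in scaling rpoB and rpoC1 lie at 0.11 and 0.031.

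The LMPC arrays differed among themselves in these genes. LMPC array 1 was the highest of the 3 for 18 of 19 genes, against 42.4% of all probe sets tested. The median ratio of LMPC array 1 to the mean of LMPC arrays 2 and 3 was 2.51 over the 19 genes, and 1.12 over all probe sets tested. The ratio ranged from 0.8 for rps16 to 6.67 for rpl14. The class medians of this ratio were 1.86 for small subunit, 4.41 for large subunit and 1.82 for polymerase genes. Other plastid genes had LMPC array 1 highest in 46 of 48, with a median ratio of 2.98. On the exudate side, array 2 was the lowest for 13 of 19 genes, against 40.1% of all probe sets tested, and array 3 the highest for 10, against 52.4%.

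**Figure D3:**
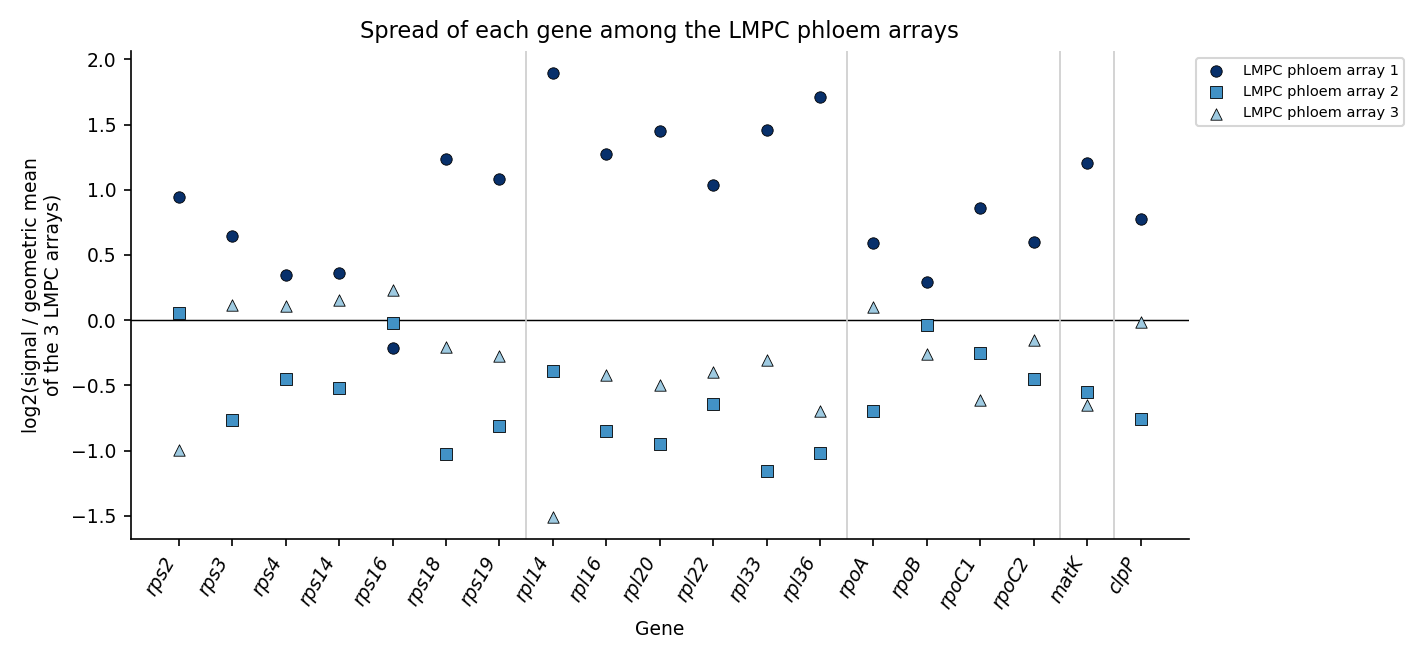
Signal of each gene on the 3 LMPC phloem arrays, as log2 of the ratio to their geometric mean, with a symbol for each array. LMPC array 1 is the highest point for 18 of 19 genes, with rps16 the exception.

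Other measures differed between the arrays too. The control probe set for 25S ribosomal RNA, which has no poly-A tail, gave 1010, 945 and 2053 on exudate arrays, against 1136, 173 and 246 on LMPC arrays, so that LMPC array 1 was also the highest LMPC array there. Between the groups it ran opposite to the plastid genes on LMPC arrays 2 and 3, which lay below every exudate array, while LMPC array 1 lay within the exudate range. The 5S ribosomal RNA control gave 16.6, 1.70 and 14.2 on exudate arrays, against 175, 118 and 66.4 on LMPC arrays. It was thus lower in exudate without overlap, the same way as the plastid genes, and LMPC array 1 was again the highest. Of 23 nuclear photosynthesis genes listed as markers of green leaf cells, 3 had a probe set of their own. All 3 (the antenna protein genes LHCB4.2 and LHCB4.1, and RCA, for the activase of Rubisco, at 2.37, 1.33 and 1.01, with limma adjusted p = 0.000381, 0.0276 and 0.0484) were called higher in exudate, opposite to the plastid genes. The groups did not overlap for LHCB4.2. LMPC array 1 lay above exudate array 1 for LHCB4.1 (489 against 404) and for RCA (96.0 against 92.9). The summed signal of the 3 genes was 1036, 924 and 1805 on exudate arrays, against 745, 312 and 183 on LMPC arrays, again with LMPC array 1 highest among the LMPC arrays. The part of ribosomal RNA carry-over and of green cells in the results was not tested.

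Markers of the sampled tissue were thinly covered. Of 12 phloem markers 3 had a probe set of their own, and their summed signal was 112, 115 and 179 on exudate arrays, against 444, 210 and 239 on LMPC arrays. Of these, CLE41 and SWEET11 were called lower and CLE44 higher in exudate. Of 7 xylem markers 1 was covered (GUT2, called lower, with a summed signal between 16.0 and 33.5 on exudate arrays and between 64.9 and 80.6 on LMPC arrays). Of 8 epidermis and guard cell markers 1 was covered (FMA, not called, between 0.900 and 11.6 on exudate arrays and between 10.8 and 28.9 on LMPC arrays). No marker covered was at 0, and the tissue labels cannot be checked further with these.

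In chromosome order most of the 19 genes form runs of neighbours. Neighbours here are next to each other among the plastid genes with a probe set of their own. Genes without one can lie between them. In the run rps2, rpoC2, rpoC1 and rpoB, whose polymerase genes are read as an operon, the differences were -1.07, -1.30, -0.73 and -0.73. These 4 values lay closer together than those of the other runs, with SEs between 0.31 and 0.35. In the run rpl33, rps18, rpl20 and clpP they were -2.37, -2.34, -1.52 and -3.43, with the next-door rpl33 and rps18 almost alike. The run rpoA, rpl36, rpl14, rpl16, rps3, rpl22 and rps19, which resembles the ribosomal protein operons of bacteria, gave -2.96, -1.79, -1.17, -1.33, -2.28, -1.30 and -2.81. Within this run rps3 and rps19 stood lower than each of the large subunit genes between and beside them. With a pseudocount of 1 this held for rps19 (-3.76) but not for rps3 (-2.96), beside rpl36 (-3.08) and rpl16 (-3.11). The run rps2 to rpoB gave -2.36, -3.10, -1.22 and -1.14 with a pseudocount of 1, further apart than the values of the other runs. Its closeness therefore depends on the pseudocount. Differences between neighbours were not tested.

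The genes matK and rps16 stand next to each other among the genes with a probe set of their own, with differences of -2.32 and -1.32. The genes rps14 and rps4 have no such neighbour among the 19. The gene rps14 stands next to psaB and psaA, which encode the core of photosystem I and are read together with rps14. Signals of psaB were 21.0, 29.6 and 21.9 in exudate, against 826, 178 and 400 in LMPC phloem, a difference of -3.35 (SE 0.41, limma adjusted p = 7.28e-06). Those of psaA were 11.3, 7.30 and 5.40 in exudate, against 16.8, 12.5 and 1.87 in LMPC phloem, a difference of -0.10 (SE 0.32, limma adjusted p = 0.850). The 3 neighbours thus gave a large negative difference, one near 0 and one not tested. These 2 genes were named for their place beside rps14, after their values were seen. The neighbours of rps4 with a probe set of their own, ycf3 (-0.77) and ndhJ (-0.08), were not called (limma adjusted p = 0.133 and 0.905).

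**Figure D4:**
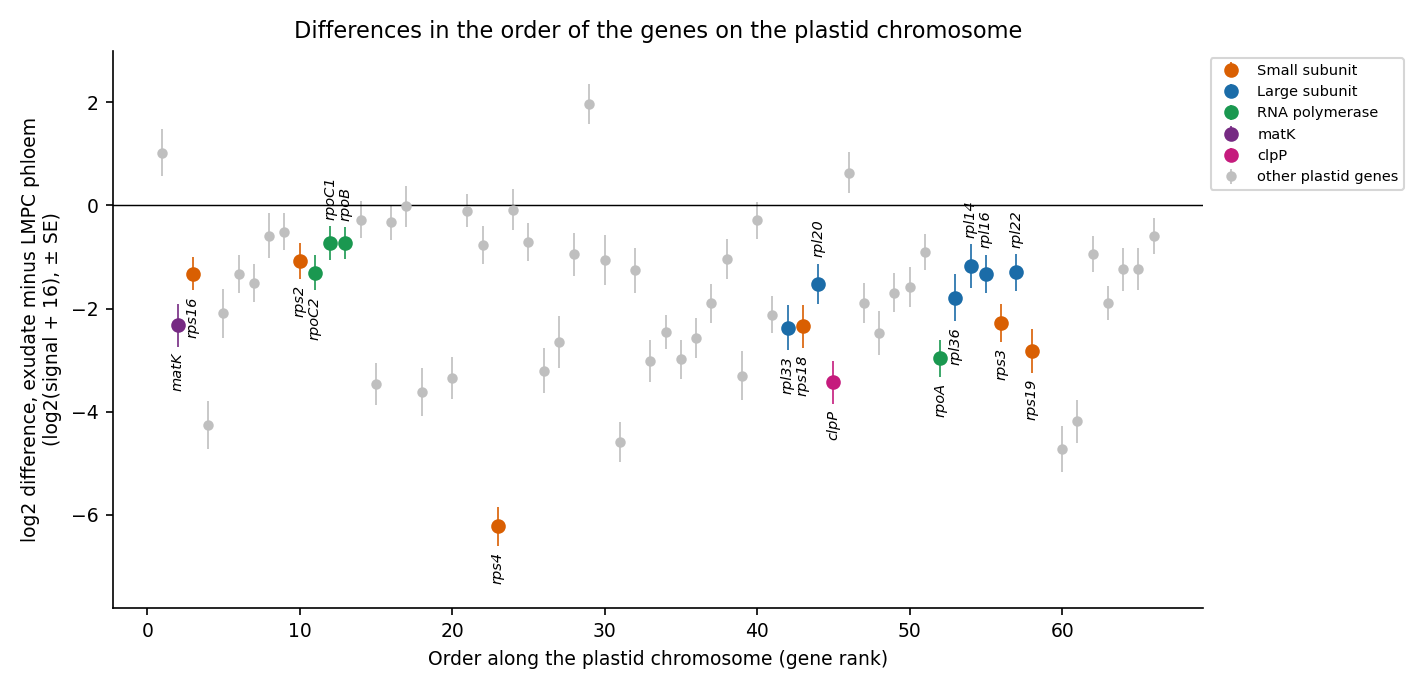
Difference (exudate minus LMPC phloem, log2(signal + 16), SE bars) of the 64 plastid genes tested, placed by rank along the plastid chromosome. The gene expression genes are coloured by class and other plastid genes are grey. The run rps2 to rpoB lies between -1.30 and -0.73, and rps4 stands alone at -6.22.

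The other plastid genes, mostly of photosynthesis, had a median difference close to that of the gene expression genes, but a smaller share was called lower. Of 46 tested, 27 were called lower and 1 (rbcL, at 1.96, limma adjusted p = 0.00109) higher, with a median difference of -1.42, beside 15 of 18 and -1.65 for the gene expression genes. The smallest adjusted p-values among those called lower were those of psaI (-4.59), ccsA (-4.72) and ndhD (-4.18). All exudate arrays lay below all LMPC arrays for 28 of the 48 other plastid genes, against 18 of 19 gene expression genes and 27.7% of probe sets tested. Counts over both groups of genes rest on the same arrays, and the difference between these groups was not tested. No ribosomal protein gene of the mitochondrial genome had a probe set of its own.

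Nuclear partners of these genes, which encode the other plastid ribosome proteins, sigma factors, phage-type polymerases, polymerase-associated proteins, Clp subunits and intron splicing factors, were covered thinly. Of 85 loci in 7 lists, 19 had a probe set of their own and 16 were tested, with 1 called lower and 2 higher in exudate, beside the background of 16.6% lower and 8.49% higher. None of the sigma factors (0 of 6) or polymerase-associated proteins (0 of 13) was covered, and the 1 phage-type polymerase covered was not tested. Of 3 small subunit proteins tested, AT5G24490 was higher, with 78.0 ± 2.76 in exudate and 15.3 ± 9.52 in LMPC phloem (mean ± SD, n = 3 each), a difference of 1.63 (limma adjusted p = 0.000909). Of 7 large subunit proteins tested, AT2G43030 was higher, with 122 ± 45.5 in exudate and 34.7 ± 8.55 in LMPC phloem, a difference of 1.41 (limma adjusted p = 0.0038). Of 5 Clp genes tested, AT1G68660 was lower, with 65.9 ± 16.6 in exudate and 214 ± 88.6 in LMPC phloem, a difference of -1.42 (limma adjusted p = 0.00611). The median differences were 0.38 for the nuclear small subunit genes and -0.19 for the nuclear large subunit genes, beside -2.31 and -1.42 for the plastid-encoded genes of the same subunits. CLPP4, a nuclear subunit of the same protease as clpP, differed by 0.21 (SE 0.33, limma adjusted p = 0.671). The 1 splicing factor gene tested, AT5G16140, differed by 0.04 and was not called.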

How the data were processed

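The deposited values are linear MAS5 intensity values, with MAS5 named in the submitters' processing notes but no version. The scaling target, like the background setting and build, is not given in the sources used here. Exudate values carry fewer decimals than LMPC values. Groups came from sample titles (exudate and LMPC phloem, n = 3 each).

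Leaving out 64 controls from 22810 probe sets, 13513 were assigned to 1 gene by the platform annotation (13436 of them found in TAIR10.1, used for names and gene order), 503 to several and 8730 to none. Tested were those over the 40th percentile on 3 or more of the 6 arrays. With limma 3.58.1 in R 4.3.3, lmFit and eBayes were fitted to log2(signal + 16) without normalization or covariates. This design had assumed arrays scaled alike, which the values did not show, so calls after other scalings are given too. The fit was tested on simulated data.

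The genes and lists were chosen with earlier results of these data known. Named were all 19 genes, the 3 other plastid genes called in each direction with the smallest adjusted p and, per partner or marker list, up to 2 called in the commoner direction plus 1 called the opposite way. Genes named for their position, and RCA, FMA, CLPP4 and AT5G16140, were chosen after their values were seen. Alternatives were quantile, median and spike-in scaling, pseudocounts of 1 and 64, no limit or the 60th percentile for dim probe sets, a replicate block, and leaving out each array. The number of arrays, 3 per group, limits the precision.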

Additional observations from a re-analysis of the deposited data

How the results depend on the processing

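Of the 18 genes tested, 8 were called lower under all 14 alternatives. The spike-ins gave 8 genes called lower in all, 1 of them of the large subunit and 1 of the polymerase, and turned the sign of rpoC1, to a log2 difference of 0.031, and of rpoB, to 0.11. Over all probe sets, lower calls numbered 1458 after median centring and 532 after spike-in scaling, and higher calls 1986 after quantile normalization, 2144 after median centring and 4036 after spike-in scaling. Large subunit genes called lower numbered 1 with a pseudocount of 64, 1 without the limit on dim probe sets and 3 (of 3 tested) with the 60th percentile as limit (background 21.3%). Leaving out 1 array at a time gave 11 to 16 plastid gene expression genes called lower, among them 2 to 6 large subunit genes. Over all probe sets it gave 1477 to 2569 lower and 727 to 1120 higher calls. Fewest plastid gene expression genes were called without LMPC array 1 (11 of 17), where 1477 of 13881 probe sets tested were lower (background 10.6%). Most were called without exudate array 3 (16 of 18), where 2569 of 13855 probe sets tested were lower. There were 1552 lower and 807 higher calls without exudate array 1, 1624 lower calls without LMPC array 2 and 727 higher calls without exudate array 3. Other plastid genes called higher were 2 after quantile normalization or median centring, 3 after spike-in scaling, and 1 to 2 with 1 array left out. The cause of these shifts was not tested. With the replicate number as a block, 16 genes were called lower (the background was 14.4%), rpl14 in addition, and 2205 probe sets were lower and 1213 higher over all. Same-numbered arrays did not deviate together (correlations of -0.00, -0.02 and -0.07), and differently numbered arrays gave correlations from -0.04 to 0.06. The labels do not say whether the numbers pair the samples, and these correlations neither show a pairing nor exclude one. Each gene had 1 probe set, so using all probe sets changed nothing. Signals near the 40th percentile limit what can be said of dim genes such as rps14.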
